A study of Mus musculus with 9 samples.

Results

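The genes described here encode proteins of the mitochondrial ribosome and were taken as all genes whose official mouse symbol starts with Mrpl (large subunit) or Mrps (small subunit) and that had a probe on the array. There were 78 such genes among 20018 named genes on the array, 49 of them Mrpl and 29 Mrps, out of 84 Mrpl and Mrps symbols in the gene table used for naming. Of the 78, 77 (48 Mrpl and 29 Mrps) were bright enough to be tested, among 14506 tested genes in all. The remaining gene, Mrpl21 on chromosome 19, was too dim for a test. Of the 77, 75 were well above background on all 9 arrays, whereas Mrps2 and Mrps27 each missed that mark on 1 array of the 7 week group.

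Expression was measured on 9 one-colour arrays, 3 for each of 3 diet groups. The samples were erythroblasts, the nucleated precursors of red cells, sorted from bone marrow as a gate that the labels call subset II. Mice on normal diet formed the group ND. The groups LID_W_3w and LID_W_7w had received a low iron diet from weaning for 3 and 7 weeks. The mice of all groups were wild type, of the strain C57BL/6J and labelled female, with no age given for ND. The 3 samples of a group are called biological replicates, but the labels do not say whether a sample was 1 mouse or a pool, so p-values measure only the spread between these samples. The study concerns anemia of iron deficiency, mitophagy and gene expression in these cells.

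Mitochondria carry their own ribosomes, which translate the few proteins encoded by mitochondrial DNA, all of them core subunits of the respiratory chain and the ATP synthase. The ribosomal RNAs are made inside the mitochondrion, whereas every ribosomal protein is encoded in the nucleus, translated in the cytosol and imported. The small subunit binds the mRNA and decodes it, and the large subunit joins the amino acids. Erythroblasts use mitochondria to make heme and iron-sulfur clusters, and they remove them by mitophagy as they become red cells. In structures of the human mitochondrial ribosome, several subunits hold iron-sulfur clusters.

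All levels below are log2 signals relative to the array's own 75th percentile of signal, so a level of 0 is a signal at that percentile. Differences between groups are given as log2 fold changes ± their standard errors, with n = 3 arrays a group throughout. The p-values come from limma with all 9 arrays in 1 fit and Benjamini-Hochberg adjustment over all 14506 genes, with a threshold of 0.05. A level shows the brightness of a probe, which differs between probes for reasons other than RNA amount, so brightness is used only to group genes.

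Several properties of the arrays bear on every result. Each group lay on a slide and a scan of its own, so slide, scan and diet group cannot be told apart. The 75th percentile of signal lay between 1499 and 1616 in ND, between 1677 and 1837 at 3 weeks and between 792 and 1087 at 7 weeks. Of all spots, 65.5% to 66.3% were well above background in ND, 56.8% to 70.8% on the 3 week arrays and 45.2% to 53.6% on the 7 week arrays. Spike-in control spots had mean log2 levels, relative to the 75th percentile, of 0.503 to 1.74 in ND and 1.1 to 1.57 at 3 weeks. On the 7 week arrays these were 4.44 to 5.35, and the part of that difference in the results was not tested. ND replicates 1 and 2 went against the label female: their levels of Eif2s3y, a gene of the Y chromosome, were 5.12 and 4.82, against -3.78 in ND replicate 3, and their levels of Xist, which is made from an inactive X chromosome, were -5.59 and -5.24, against -0.73. The members' counts and medians, the members called relative to ND and the medians of the lists are therefore also given with ND replicate 3 alone, which leaves that group's own spread unmeasured. The 10 erythroblast markers had a summed signal of 2025 to 2159 times the 75th percentile in ND and of 1825 to 1951 times on the 3 week arrays. On the 7 week arrays it was 2606 to 4045 times. None of the 10 passed the threshold at 3 weeks, and at 7 weeks 3 rose and 1 fell relative to ND. Their median log2 levels overlapped, at 7.03, 6.95 and 7.17 in ND and 7.99, 6.75 and 7.22 at 7 weeks. The summed signal of 7 monocyte and macrophage markers lay between 19.1 and 27.9 in ND, between 42.6 and 73.5 on the 3 week arrays and between 13.2 and 17.8 on the 7 week arrays, and 4 of the 7 rose at 3 weeks. That of the B lineage markers lay between 4.24 and 6.86 in ND, between 8.95 and 21.3 on the 3 week arrays and between 3.33 and 9.53 on the 7 week arrays, and 2 of 6 tested rose at 3 weeks. The 9 neutrophil markers had overlapping sums of 212 to 588 in ND, of 272 to 440 on the 3 week arrays and of 348 to 555 on the 7 week arrays, and 2 of them rose at 3 weeks. The part of these cell types in the results was not tested. In sorted samples measured in bulk, fewer cells of a type and less RNA per cell cannot be told apart.

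The promoters of 4 members are shown because their genes moved in different ways. Mrpl52 was among the genes lower at 3 weeks of low iron diet and carries a core of the binding motif of ETS factors such as GABPA, which most of those genes had. Mrps18a, an iron-sulfur subunit higher at 7 weeks, also carries it. It was the exception: Mrpl20, Mrpl2 and Mrps10, also higher than ND at 7 weeks, lacked the motif in the longer promoters searched below. For Mrpl54, likewise higher, no promoter was listed. Among members lower than ND at 7 weeks, Mrpl3 alone held the motif. Whether the motif goes with the direction of change was not tested. Mrps36 was called lower than ND at both times, at 7 weeks with its brighter probe only, and Mrps5 at 7 weeks, and neither has the motif. Each line gives the 100 bases before the gene's start in RefSeq, build GRCm38.p6, 5′ to 3′ on the gene's strand, with the motifs in capitals: the ETS motif CCGGAAG or its reverse complement, and, in Mrps36, 2 overlapping copies of the SP1 motif GGGCGG. The regions are chr14:54426809-54426908 (plus strand) for Mrpl52, chr17:46110904-46111003 (plus) for Mrps18a, chr13:100744660-100744759 (minus) for Mrps36 and chr2:127587326-127587425 (plus) for Mrps5.
Mrpl52: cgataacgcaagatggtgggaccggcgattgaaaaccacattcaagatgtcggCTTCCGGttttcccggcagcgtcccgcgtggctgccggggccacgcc
Mrps18a: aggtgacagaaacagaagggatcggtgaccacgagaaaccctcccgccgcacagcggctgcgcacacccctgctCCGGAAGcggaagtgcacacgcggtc
Mrps36: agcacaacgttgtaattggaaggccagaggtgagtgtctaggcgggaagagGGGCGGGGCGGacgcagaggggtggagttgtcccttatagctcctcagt
Mrps5: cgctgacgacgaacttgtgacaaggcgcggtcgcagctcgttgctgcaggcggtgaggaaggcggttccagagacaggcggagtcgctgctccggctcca

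After 3 weeks of low iron diet, 11 of the 77 members fell relative to ND and none rose. Among all 14506 genes, 7.88% fell and 3.52% rose, so the share of members that fell was above the background and the share that rose was below it. Without adjustment, limma gave p under 0.05 for 22 members lower and 1 higher. The median log2 fold change of the members was -0.69, against -0.17 for all genes, and 65 of the 77 members had a negative value. On 45 members every 3 week array was below every ND array, and on 3 every 3 week array was above, where 31.6% and 18% of all genes were separated in these directions. With ND replicate 3 as the only ND array the members' median was -0.40, no member passed the adjusted threshold in limma, and 5 were lower at an unadjusted p under 0.05. In that fit no gene of the whole array passed.

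**Figure D1:**
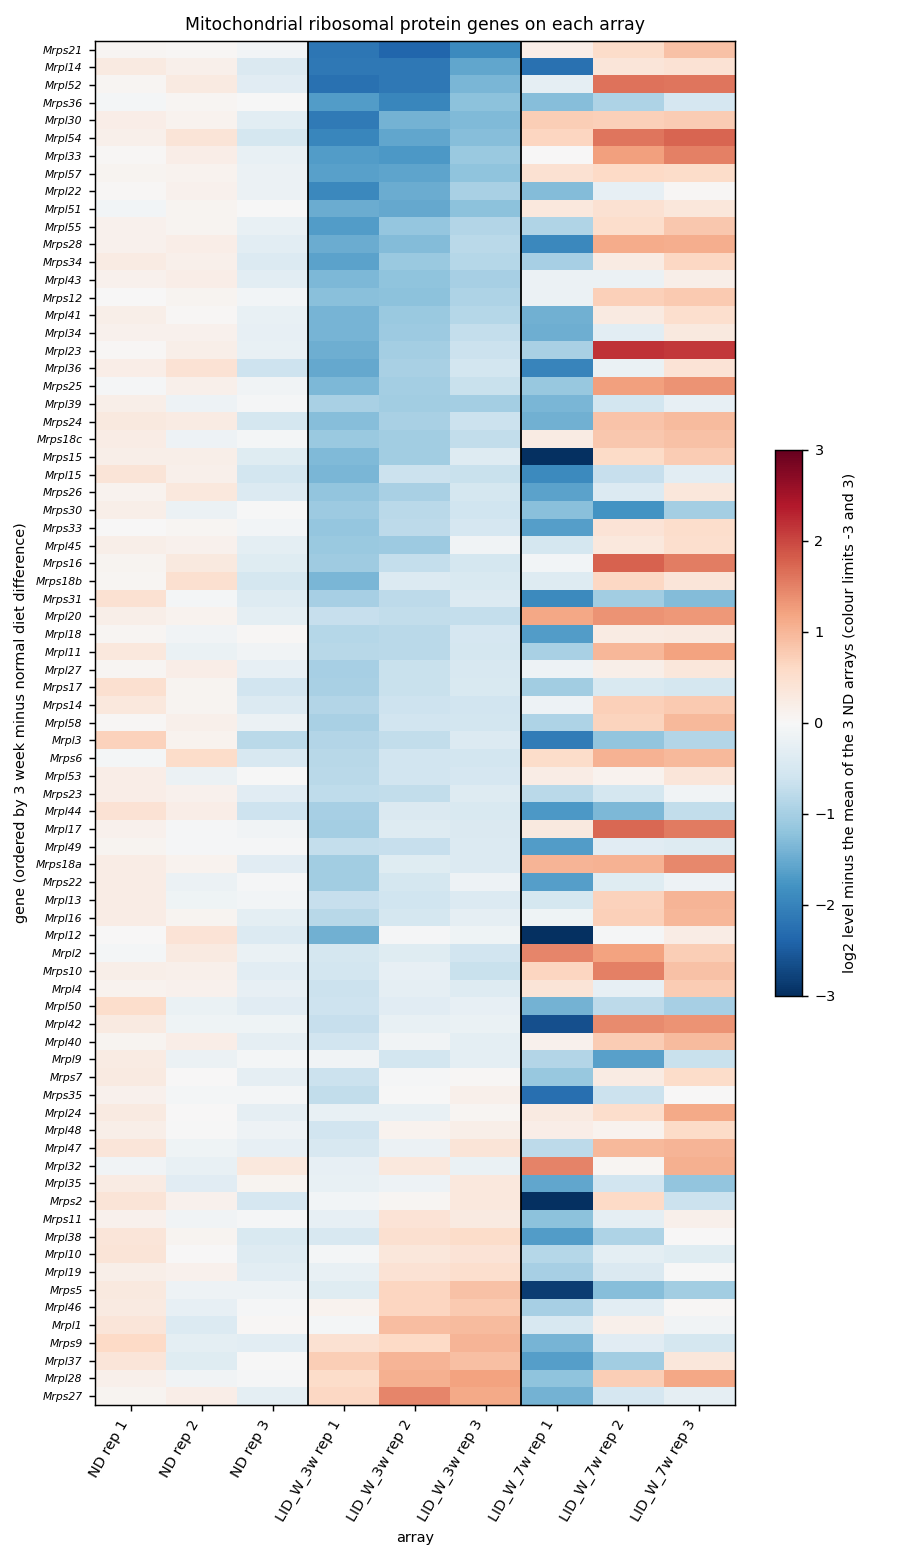
Heat map of the 77 tested genes (rows, ordered by their 3 week minus ND difference) on the 9 arrays (columns). Colour gives the log2 level minus the gene's mean over the 3 ND arrays, with colour limits of -3 and 3; most rows are blue on the 3 week arrays, and on the 7 week arrays replicate 1 differs from replicates 2 and 3.

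The steepest fall was that of Mrps21, a small subunit protein with a bacterial homologue. Its levels were 4.12, 3.91 and 4.39 at 3 weeks, against 6.35, 6.33 and 6.20 in ND. The highest 3 week array was thus far below the lowest ND array. The log2 fold change was -2.15 ± 0.27 (limma, adjusted p = 0.00794), which is 0.225 times the ND signal. It was the only one of the 11 that remained past the threshold whichever of the 9 arrays was left out, and with ND replicate 3 alone it was -2.06 (limma, adjusted p = 0.257).

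Large subunit genes made up 8 of the 11. Mrpl52, a protein found in mitochondrial and not in bacterial ribosomes, had levels of 2.50, 2.59 and 3.35 at 3 weeks, against 4.80, 5.0 and 4.39 in ND, a change of -1.92 ± 0.52 (limma, adjusted p = 0.0446). Mrpl54, likewise specific to mitochondria, had levels of 1.87, 2.25 and 2.53 at 3 weeks, against 3.96, 4.20 and 3.28 in ND, a change of -1.60 ± 0.39 (limma, adjusted p = 0.0321). In both genes replicate 3 of ND was the lowest of its group, yet it stayed above all 3 week arrays. Mrpl30, the homologue of a bacterial large subunit protein, was at 3.32, 4.02 and 4.11 at 3 weeks, against 5.62, 5.55 and 5.13 in ND, a change of -1.61 ± 0.29 (limma, adjusted p = 0.015).

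The brightest member on the array, Mrpl51, is a mitochondria-specific large subunit protein. It was at 6.00, 5.94 and 6.26 at 3 weeks, against 7.42, 7.58 and 7.47 in ND, and changed by -1.42 ± 0.23 (limma, adjusted p = 0.0122). Mrpl57, another small mitochondria-specific protein of the large subunit and the third brightest member, was at 5.30, 5.36 and 5.72 at 3 weeks, against 7.01, 7.03 and 6.74 in ND, a change of -1.47 ± 0.24 (limma, adjusted p = 0.0128). The arrays of each group lay close together for these 2 genes and the groups did not overlap. The other large subunit genes that fell were Mrpl33 (-1.50), Mrpl22 (-1.47), whose bacterial counterpart lines the exit tunnel, and Mrpl43 (-1.19).

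Among Mrps symbols, Mrps36 and Mrps12 also fell.
Mrps36, a protein named for the small subunit and since described as a part of the 2-oxoglutarate dehydrogenase complex, was at 4.38, 4.11 and 4.82 at 3 weeks, against 6.01, 6.11 and 6.06 in ND. Its change was -1.63 ± 0.30 (limma, adjusted p = 0.0155), and its dimmer second probe gave -1.37. Mrps12, the homologue of a bacterial protein at the decoding centre, was at 3.95, 3.97 and 4.26 at 3 weeks, against 5.20, 5.28 and 5.11 in ND, a change of -1.14 ± 0.31 (limma, adjusted p = 0.0453). In neither gene did the groups overlap.

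The remaining 66 members had 3 week changes between -1.94 and 1.07, none past the threshold. Mrpl14, named here after its values were seen, was the most negative of them. Its levels were 4.53, 4.54 and 5.13 at 3 weeks, against 6.94, 6.84 and 6.25 in ND (-1.94 ± 0.65, limma, adjusted p = 0.0849). Its groups did not overlap at 3 weeks, but its 7 week arrays, at 4.43, 7.05 and 7.12, were far apart and share the standard error of the fit. The most positive was Mrps27, a small subunit protein with pentatricopeptide repeats and the dimmest member, at -0.79, 0.05 and -0.27 at 3 weeks, against -1.32, -1.20 and -1.71 in ND (1.07 ± 0.37, limma, adjusted p = 0.0903).

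The 7 week arrays set part of that error. Without 7 week replicate 1, the comparison of 3 weeks with ND gave 25 members lower and 2 higher, although none of the compared arrays changed. Over all genes, 15.9% were lower and 8.26% higher in that fit. Leaving out 1 of the compared arrays gave 1 member lower without ND replicate 2 or 3 week replicate 2, 3 without ND replicate 1 or 3 week replicate 1, 4 without ND replicate 3 and 5 without 3 week replicate 3. Of all 14506 genes, 373, 116 and 231 were lower without ND replicates 1, 2 and 3. Without 3 week replicates 1, 2 and 3 they numbered 283, 153 and 610. The fit on the 3 week and ND arrays alone gave 28 lower and 3 higher, with 19.2% of all genes lower and 11.2% higher.

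After 7 weeks of low iron diet, 9 members fell and 5 rose relative to ND. Over all genes, 18.7% fell and 10.7% rose. The shares of members that fell and that rose were thus both below the background, and at an unadjusted p under 0.05 in limma 10 were lower and 11 higher. The median over the members was -0.04, against -0.26 for all genes, with 39 of 77 negative. On 12 members all 7 week arrays were below all ND arrays and on 13 above them, where 29.4% and 18.1% of all genes were so separated. With ND replicate 3 alone, the median was 0.25 and no member passed (limma, 1 lower and 6 higher at an unadjusted p under 0.05).

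Of the 5 members that rose, Mrpl20 had the smallest adjusted p. It is the homologue of a bacterial protein needed early in large subunit assembly. Its levels were 7.51, 7.70 and 7.67 at 7 weeks, against 6.54, 6.47 and 6.06 in ND, a change of 1.27 ± 0.24 (limma, adjusted p = 0.00723). All 7 week arrays were above all ND arrays, and the call held without any 1 array. The value with ND replicate 3 alone was 1.56 (limma, adjusted p = 0.108).

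Mrpl2, whose bacterial counterpart lies near the catalytic centre, was at 7.95, 7.70 and 7.22 at 7 weeks, against 6.42, 6.75 and 6.30 in ND (1.14 ± 0.28, limma, adjusted p = 0.0169). Mrpl54 was at 4.45, 5.42 and 5.56 at 7 weeks, against 3.96, 4.20 and 3.28 in ND (1.33 ± 0.39, limma, adjusted p = 0.0319). Mrps18a was at 4.02, 4.04 and 4.44 at 7 weeks, against 3.21, 3.10 and 2.66 in ND (1.18 ± 0.30, limma, adjusted p = 0.0197). No group overlapped the other in these 3 genes. For Mrpl54 this stands beside a 3 week change of -1.60, and both comparisons use the same ND arrays.

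The largest fall at 7 weeks was that of Mrps5, the homologue of a bacterial small subunit protein at the mRNA entrance. Its levels were -0.23, 1.34 and 1.58 at 7 weeks, against 2.91, 2.48 and 2.47 in ND (-1.72 ± 0.51, limma, adjusted p = 0.0343). Replicate 1 of the 7 week group was by far the lowest, and without it the change was -1.16 (limma, adjusted p = 0.0463). Mrps30, which sits on the large subunit in structures of the ribosome despite its symbol, was at 2.48, 1.95 and 2.71 at 7 weeks, against 3.91, 3.56 and 3.71 in ND (-1.35 ± 0.29, limma, adjusted p = 0.0105). Its groups did not overlap, and with Mrpl20 it was 1 of 2 members out of 14 that remained past the threshold whichever array was left out.

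Mrps31, a mitochondria-specific small subunit protein, was at 1.69, 2.55 and 2.31 at 7 weeks, against 4.06, 3.55 and 3.21 in ND (-1.42 ± 0.34, limma, adjusted p = 0.0158). Mrpl3, the homologue of a bacterial large subunit protein, was at 2.62, 3.54 and 3.85 at 7 weeks, against 5.43, 4.84 and 3.91 in ND (-1.39 ± 0.45, limma, adjusted p = 0.0453). Here ND replicate 3 lay close to the 7 week arrays: with it alone the change was -0.57 (limma, adjusted p = 0.593). Smaller falls were those of Mrpl44 (-1.27), a large subunit protein with a fold like ribonuclease III, Mrpl35 (-1.10), Mrpl50 (-1.07) and Mrpl9 (-1.06). Mrps36 was the ninth that fell (-0.90 ± 0.30, limma, adjusted p = 0.0475) and Mrps10 the fifth that rose (1.01, adjusted p = 0.0374), both named for 7 weeks after their values were seen. The dimmer probe of Mrps36 gave -0.36 (limma, adjusted p = 0.373 over all probes). The 7 week call of Mrps36 was lost with the mean of its probes and held in 1 of 9 fits that left out an array. The other 63 members had 7 week changes between -1.15 and 1.19.

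With ND replicate 3 as the only ND array, all called members kept the sign of their change. At 3 weeks the 11 then lay between -2.06 (Mrps21) and -0.86 (Mrpl43), with Mrpl52 at -1.58, Mrpl51 at -1.40, Mrpl30 at -1.31, Mrpl57 at -1.28 and Mrpl54 at -1.07. At 7 weeks the 5 that rose lay between 1.33 and 1.86, the highest being Mrpl54, and the 9 that fell lay between -1.57 and -0.57. The changes of Mrpl3 and Mrpl44, at -0.57 and -0.64, moved by over 1.5 times, and that of Mrps30 was -1.34.

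**Figure D2:**
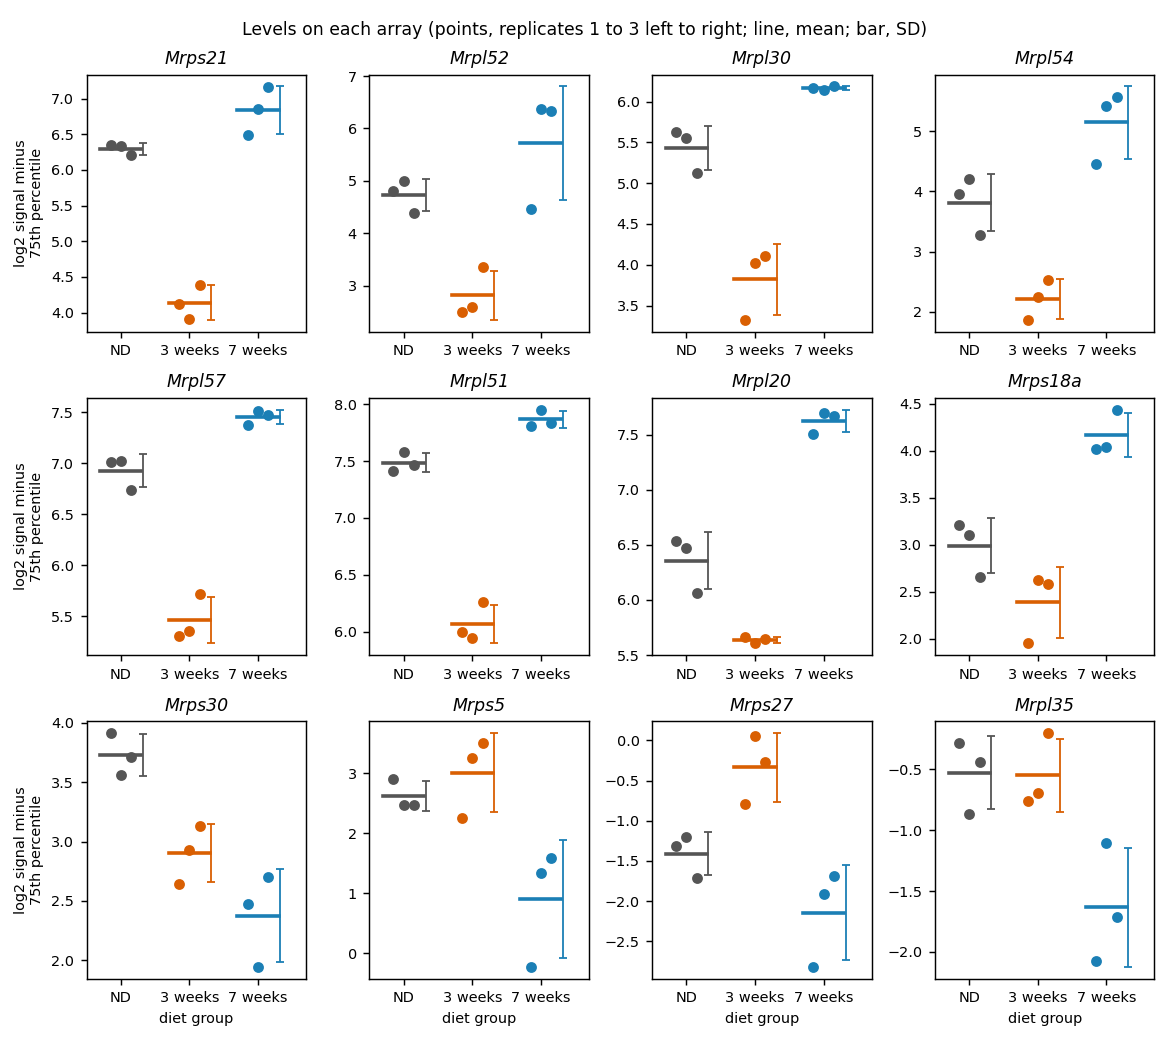
Levels of 12 members on each array (log2 signal minus the array's 75th percentile; each panel has its own axis), with points for replicates 1 to 3 from left to right, lines for group means and bars for the SD over 3 arrays. The upper 2 rows hold genes whose 3 week arrays are the lowest of the 3 groups, such as Mrps21 at 3.91 to 4.39. The lowest row holds genes whose 7 week mean is the lowest, such as Mrps5 with arrays at -0.23 to 1.58. In Mrps30 the 7 week arrays overlap those of 3 weeks, and in Mrps27 those of ND.

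After 7 weeks relative to 3 weeks of low iron diet, 24 members rose and 5 fell. Over all genes, 17.6% rose and 19.6% fell, so members that rose were above the background share and members that fell were below it. The median over the members was 0.73, against -0.13 for all genes, and 53 of 77 were positive. At an unadjusted p under 0.05 limma gave 33 higher and 8 lower. On 25 members all 7 week arrays were above all 3 week arrays and on 11 below, where 23.2% and 25.2% of all genes were so separated. This comparison uses the same 3 week arrays as the comparison of 3 weeks with ND, so the 2 sets of differences are not independent.

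The highest values were those of Mrpl54 (2.93 ± 0.39, limma, adjusted p = 0.000944), Mrpl52 (2.90 ± 0.52, adjusted p = 0.00311), Mrps21 (2.70 ± 0.27, adjusted p = 0.000448) and Mrpl33 (2.41 ± 0.40, adjusted p = 0.00239). Mrps21 was at 6.50, 6.85 and 7.17 at 7 weeks, all above the 3 week levels given earlier. Mrpl52 was at 4.47, 6.37 and 6.33, with replicate 1 nearest to the 3 week arrays but still above them. Set side by side, the changes of Mrps21 were -2.15 at 3 weeks and 0.54 at 7 weeks relative to ND, the second with a limma adjusted p of 0.154. Those of Mrpl52 were -1.92 and 0.99 (adjusted p = 0.172 at 7 weeks).

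Of the 29 members called between 7 and 3 weeks, 17 remained past the threshold whichever array was left out. Of these, 9 remained past it in every other setting in which they were tested: Mrpl20, Mrpl30, Mrpl33, Mrpl51, Mrpl52, Mrpl54, Mrpl57, Mrps21 and Mrps27. The first 8 were higher at 7 weeks and Mrps27 was lower. Mrps27 was not tested under the filter that asks for a signal well above background on all 9 arrays. Mrpl30 was particularly even at 7 weeks, at 6.17, 6.15 and 6.19, against 3.32, 4.02 and 4.11 at 3 weeks (2.35 ± 0.29, limma, adjusted p = 0.000772).

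The 5 members that fell between 3 and 7 weeks were dim. Mrps5 was at -0.23, 1.34 and 1.58 at 7 weeks, against 2.26, 3.26 and 3.51 at 3 weeks (-2.11 ± 0.51, limma, adjusted p = 0.012). Mrps27 was at -2.82, -1.92 and -1.69 at 7 weeks, 1 of these not well above background, against -0.79, 0.05 and -0.27 at 3 weeks (-1.81 ± 0.37, limma, adjusted p = 0.00568). In both genes the groups did not overlap. Mrpl37, a mitochondria-specific large subunit protein, was at -0.59, 0.04 and 1.40 at 7 weeks, against 1.82, 2.10 and 1.98 at 3 weeks (-1.68 ± 0.47, limma, adjusted p = 0.0213). Mrps9 changed by -1.46 and Mrpl35 by -1.08, both homologues of bacterial proteins.

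Signals before scaling gave another split between 7 and 3 weeks. Unscaled, the median of all genes was -1.09 and that of the members -0.23, with 8 members higher and 20 lower, where 5.69% of all genes were higher and 46.9% lower. Scaling takes 1 value per array from every gene, so it shifts the members and all genes alike. The members' median was thus bound to lie as far above that of all genes with as without scaling. The sign of the members' own median depended on the scaling.

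Many members shared the array on which they were lowest within a group. The median level of the 77 members was 4.20, 4.21 and 3.77 on ND replicates 1 to 3, 3.06, 3.48 and 3.66 on the 3 week arrays, and 3.20, 4.49 and 4.66 on the 7 week arrays. Replicate 1 was the lowest of its group for 68 of 77 members at 7 weeks and for 67 at 3 weeks, and in ND replicate 3 was the lowest for 56. The same counts over all genes are not given here, so nothing particular to the members is read from them. The median difference from the ND mean on the 7 week arrays was -0.99, 0.26 and 0.50 for members and -0.24, -0.32 and -0.20 for all genes. The spread was widest at 7 weeks, with a median SD over members of 0.60, against 0.31 at 3 weeks and 0.27 in ND. The highest was that of Mrpl42, named after its values were seen, at 0.61, 4.67 and 4.60 on the 7 week arrays (SD 2.32, n = 3). On these arrays 45.2%, 49.9% and 53.6% of spots were well above background, the lowest share on replicate 1, and the part of that difference in the members' values was not tested.

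Without 7 week replicate 1, 23 members were higher and 4 lower than in ND, against 5 and 9 with it, and the members' median was 0.40. Over all genes 12.7% were higher and 23.2% lower in that fit. Relative to 3 weeks, 44 members were then higher and 4 lower, with a median of 1.09, where 20.4% of all genes were higher and 24.4% lower. Leaving out any other single array gave 1 to 5 members higher and 1 to 8 lower for 7 weeks against ND. Of these, 1 and 1 remained without ND replicate 1, and 1 and 4 without ND replicate 3. Over all genes, 576 were higher and 1163 lower without ND replicate 1, and 764 and 1384 without ND replicate 3.

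By subunit, the medians at 3 weeks were -0.63 over 48 Mrpl genes, 8 of which fell, and -0.73 over 29 Mrps genes, 3 of which fell, and none rose in either subunit. At 7 weeks the medians relative to ND were 0.11 over Mrpl genes, with 5 lower and 3 higher, and -0.24 over Mrps genes, with 4 lower and 2 higher. Relative to 3 weeks they were 0.81, with 2 lower and 16 higher, and 0.57, with 3 lower and 8 higher. For all genes, the shares lower were 7.88%, 18.7% and 19.6% in the 3 comparisons, and the shares higher 3.52%, 10.7% and 17.6%. From these medians, Mrpl minus Mrps came to 0.10, 0.35 and 0.23 in the 3 comparisons. On single arrays, the Mrpl minus Mrps difference of median levels had an SD of 0.19 within groups. That SD describes levels on single arrays and is not the error of the differences between groups.

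The difference between subunits at 7 weeks rested on 1 array. Without 7 week replicate 1, Mrpl minus Mrps was -0.08 for 7 weeks against ND and -0.16 for 7 against 3 weeks. The symbols do not follow the structure throughout. With Mrps18a and Mrps30 counted with the large subunit, where they sit in structures of the ribosome, and Mrps36 left out, the medians were -0.63 for the large and -0.71 for the small subunit at 3 weeks, 0.11 and -0.18 at 7 weeks, and 0.81 and 0.46 between 7 and 3 weeks. With ND replicate 3 alone, the medians of Mrpl and Mrps genes were -0.41 and -0.33 at 3 weeks and 0.26 and -0.10 at 7 weeks.

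**Figure D3:**
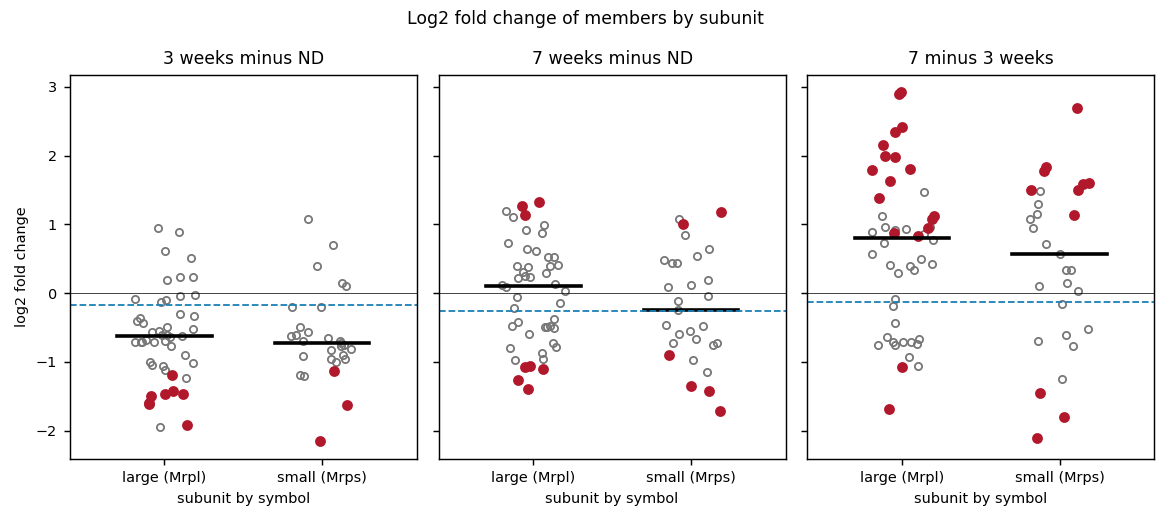
Log2 fold change of the 77 members in 3 comparisons, by subunit. Filled points passed the adjusted threshold of 0.05 in limma, open points did not, thick lines are the medians and the dashed line is the median of all 14506 genes; at 3 weeks both medians lie below it, at -0.63 and -0.73.

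The medians of bright and dim members lay further apart than those of the subunits. The members' own median level of 3.81 divides 39 bright from 38 dim members, whose signals reached from 0.0703% to 24.3% of the scanner's saturation value. At 3 weeks the bright members had a median of -0.90, with 10 lower and all 39 negative, and the dim members a median of -0.45, with 1 lower (Mrpl54). At 7 weeks relative to ND the bright members had a median of 0.24, with 2 lower and 2 higher, and the dim members -0.53, with 7 lower and 3 higher. Relative to 3 weeks the bright members had a median of 1.08, with 19 higher and none lower, and the dim members -0.48, with 5 higher and 5 lower. Against ND replicate 3 alone, the bright and dim medians were -0.74 and -0.18 at 3 weeks, with 35 of 39 bright members negative, and 0.41 and -0.20 at 7 weeks.

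The same division was made over all genes. At or above that level, the median over 2632 genes was -0.52 at 3 weeks, with 15.3% lower and 0.418% higher. At 7 weeks it was -0.27 relative to ND, with 21% lower and 10.1% higher, and 0.19 relative to 3 weeks, with 11.7% lower and 25.4% higher. Among 11874 dimmer genes the medians were -0.07, -0.26 and -0.23. Of the dimmer genes 6.22%, 18.2% and 21.4% were lower in the 3 comparisons, and 4.2%, 10.9% and 15.8% were higher. Since brightness is the mean over the same arrays, a change in 1 group moves a gene along this scale too.

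The 3 brightest members, Mrpl51, Mrpl2 and Mrpl57, had changes of -1.42, -0.50 and -1.47 at 3 weeks and of 0.38, 1.14 and 0.53 at 7 weeks relative to ND. The 3 dimmest, Mrps35, Mrpl35 and Mrps27, had -0.20, -0.02 and 1.07 at 3 weeks and -0.97, -1.10 and -0.73 at 7 weeks. Of these 12 values, those of Mrpl51 and Mrpl57 at 3 weeks and of Mrpl2 and Mrpl35 at 7 weeks passed the threshold.

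**Figure D4:**
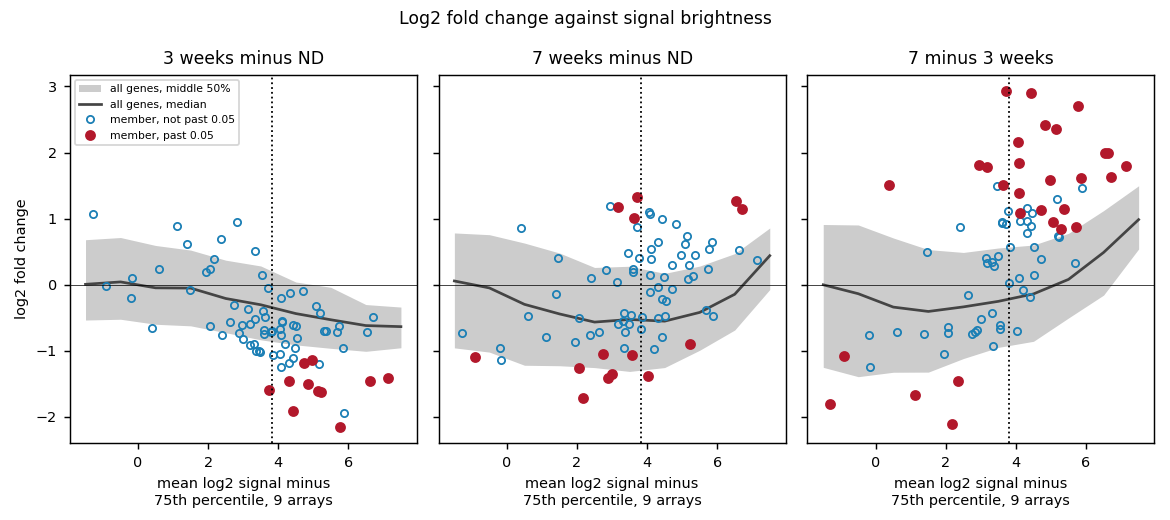
Log2 fold change against mean level over the 9 arrays (log2 signal minus the 75th percentile) in 3 comparisons. Circles are members, filled where limma's adjusted p was under 0.05, the grey line and band are the median and middle 50% of all genes in steps of 1 log2 unit, and the dotted line marks the members' median level of 3.81; at 3 weeks all 39 bright members lie below 0.

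The 5 members that hold iron-sulfur clusters in structures of the human ribosome are Mrps6, Mrps16, Mrps18a, Mrps18c and Mrps25. At 3 weeks all 5 had negative changes, from -1.01 to -0.60 with a median of -0.77, and each had its 3 arrays below the 3 ND arrays. None passed the threshold in limma, although Mrps18c came close (-0.96 ± 0.28, adjusted p = 0.0535). Its levels were 4.85, 4.91 and 5.23 at 3 weeks, against 6.19, 5.80 and 5.89 in ND.

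At 7 weeks all 5 had positive changes relative to ND, from 0.48 to 1.18 with a median of 0.85, and Mrps18a alone passed. Relative to 3 weeks, 4 of the 5 passed, all higher: Mrps16 (1.84 ± 0.47, limma, adjusted p = 0.0155), Mrps18a (1.78 ± 0.30, adjusted p = 0.00243), Mrps18c (1.61 ± 0.28, adjusted p = 0.00269) and Mrps6 (1.51 ± 0.32, adjusted p = 0.00622). Mrps25, whose 7 week arrays stood at 2.51, 4.87 and 4.98, against 2.28, 2.63 and 2.98 at 3 weeks, had 1.49 ± 0.59 (adjusted p = 0.0759). Mrps6 is the dimmest of the 5, at 0.87, 1.36 and 1.29 at 7 weeks, against -0.51, -0.26 and -0.23 at 3 weeks, and its groups did not overlap. Over all genes 17.6% were higher at 7 than at 3 weeks. With no scaling between arrays none of the 4 calls held. The other members of the ribosome also had a positive median between 7 and 3 weeks, so nothing particular to the 5 is read from these values. Against ND replicate 3 alone, the median of the 5 was -0.40 at 3 weeks and 1.33 at 7 weeks, and all 5 kept their signs.

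Members were also divided into a list taken as found only in mitochondria and a list taken as having a bacterial homologue. Mrpl genes were assigned mostly by the number in the symbol. Protein sequences were not compared, so single genes may be misplaced. The first list held Mrps18a, whereas Mrps18c was in the second. The first and second list had similar medians at 3 weeks, -0.73 over 33 genes with 6 lower and -0.68 over 44 genes with 5 lower. Mrps36, since described as a part of another complex, was among the 6. At 7 weeks the medians relative to ND were -0.22 and 0.12, with 5 lower and 2 higher against 4 lower and 3 higher. Relative to 3 weeks they were 0.49 and 0.88, with 2 lower and 9 higher against 3 lower and 15 higher. For all genes, the shares lower were 7.88%, 18.7% and 19.6% in the 3 comparisons, and the shares higher 3.52%, 10.7% and 17.6%.

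Of the 78 genes, 57 had 1 probe and 21 had 2. Both probes had the same sign for 16 of 21 genes at 3 weeks, 18 at 7 weeks relative to ND and 13 between 7 and 3 weeks. The median absolute difference between the probes of a gene was 0.25, 0.27 and 0.51 on the log2 scale. In Mrps14, a small subunit protein with a bacterial homologue, the probes opposed each other. The chosen bright probe gave 0.44 for 7 weeks against ND and 1.14 ± 0.33 between 7 and 3 weeks (limma, adjusted p = 0.0255), whereas the dim probe gave -1.47 for 7 weeks against ND (adjusted p = 0.0487 over all probes). The mean of both probes gave -0.05 between 7 and 3 weeks, so no direction is stated for this gene.

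Promoters of 250 bases before to 50 after the gene's start were listed in RefSeq for 69 of the 78 members, and both strands were searched. The ETS motif CCGGAAG was in 26 of 69 (37.7%). It was in 17.2% of 11610 tested genes with a promoter, in 25.4% of 2154 such genes at or above the members' median level, and in 9.93% of all 27025 genes of the table. Of the 11 members lower at 3 weeks, 10 had a promoter in the table and 8 of these held the motif (80%), all but Mrps36 and Mrpl30. Among all tested genes lower at 3 weeks the share was 20%. In the Mrpl52 promoter printed earlier the motif starts 47 bases before the gene, on the opposite strand, and in that of Mrps18a it starts 26 bases before it.

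Among members higher at 7 than at 3 weeks, 13 of 23 promoters held the ETS motif, against 1 of 5 among members lower. The YY1 motif AANATGGCG was in 15.9% of the members' promoters, in none of the 10 of genes lower at 3 weeks and in 3 of the 5 of genes lower at 7 than at 3 weeks, where 5.12% of tested genes had it. The NRF1 motif was in 18.8% of members, against 9.72% of tested genes. The SP1 motif GGGCGG was in 49.3%, against 60.1%, and the E-box CACGTG in 7.25%, against 10.7%. These are matches of letters, not binding sites. Other genes overlap the 250 bases before the start for 32 members, for instance Sars2 before Mrps12 and Ncapd2 before Mrpl51, so that many of these windows are shared.

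Among ribosome subunits without the Mrpl or Mrps prefix, none passed the threshold at 3 weeks. All 5 had negative changes, with a median of -0.87: Gadd45gip1 (-1.56), Ptcd3 (-1.18), Chchd1 (-0.87), Dap3 (-0.71) and Aurkaip1 (-0.54). At 7 weeks Ptcd3, a small subunit protein with pentatricopeptide repeats, fell relative to ND, at 0.84, 2.46 and 2.79, against 3.69, 3.38 and 3.39 in ND (-1.45 ± 0.47, limma, adjusted p = 0.0457), and without 7 week replicate 1 its change was -0.86 (limma, adjusted p = 0.0379). Between 7 and 3 weeks Gadd45gip1, a protein of the large subunit, rose by 2.11 ± 0.60 (limma, adjusted p = 0.0224). Aurkaip1, a protein of the small subunit, rose by 0.95 ± 0.24 (limma, adjusted p = 0.0136), although unscaled signals gave -0.00908 for Aurkaip1. Over all genes 18.7% fell and 10.7% rose at 7 weeks relative to ND, and 19.6% fell and 17.6% rose between 7 and 3 weeks.

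Factors that assemble the ribosome or modify its RNA had changes of both signs. Of 24 tested, 1 fell and 1 rose at 3 weeks, where 7.88% of all genes fell and 3.52% rose, and the median was 0.28. Malsu1, a large subunit assembly factor, was at 2.00, 2.00 and 2.55 at 3 weeks, against 4.16, 3.99 and 3.33 in ND (-1.64 ± 0.31, limma, adjusted p = 0.0168). Nsun4, an RNA methyltransferase that acts with an assembly factor on the ribosome, was at -0.33, -0.02 and -0.35 at 3 weeks, against -1.56, -2.04 and -1.51 in ND (1.47 ± 0.39, limma, adjusted p = 0.0417). The groups did not overlap in either gene.

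At 7 weeks 5 of the 24 assembly factors fell relative to ND, a share near the 18.7% of all genes, and 1 rose, where 10.7% of all genes did. Tfb1m, which methylates the small subunit's RNA, was at -0.41, 1.01 and 1.29 at 7 weeks, against 4.06, 3.48 and 3.53 in ND (-3.06 ± 0.47, limma, adjusted p = 0.00384). Mettl15, another methyltransferase of that RNA, changed by -2.18 ± 0.26 (adjusted p = 0.00196) and Mterf3, a factor of large subunit assembly, by -1.82 ± 0.33 (adjusted p = 0.00647). Every 7 week array of these 3 genes was below every ND array. Nsun4 rose by 1.42 (adjusted p = 0.0254). Relative to 3 weeks, 7 assembly factors fell and 2 rose at 7 weeks, the risers including Malsu1 (2.41 ± 0.31, limma, adjusted p = 0.000877). Over all genes 19.6% fell and 17.6% rose in that comparison.

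At 3 weeks 7.88% of all genes fell and 3.52% rose. Among 17 translation factors and partners of mitochondrial mRNA, 2 fell at 3 weeks and none rose, with a median of -0.45. Both, Slirp and Lrpprc, form 1 complex that keeps mitochondrial mRNAs stable. Slirp was at 2.76, 2.54 and 3.37 at 3 weeks, against 5.10, 5.0 and 4.69 in ND (-2.04 ± 0.34, limma, adjusted p = 0.0128). Lrpprc was at 4.47, 4.12 and 4.57, against 5.58, 5.57 and 5.99 in ND (-1.33 ± 0.26, adjusted p = 0.0178). Neither overlapped ND. Between 7 and 3 weeks these 2 rose, by 2.79 and 0.78, and 1 gene of the list fell, but unscaled signals gave -0.18 for Lrpprc. Over all genes 17.6% rose and 19.6% fell in that comparison.

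At 7 weeks 3 of the 17 translation factors fell relative to ND, a share near the 18.7% of all genes, and none rose, with a median of -0.78. They were Mtrf1l, a release factor (-1.85 ± 0.33, limma, adjusted p = 0.00581), Oxa1l, which inserts new proteins into the inner membrane (-1.49 ± 0.44, adjusted p = 0.0346), and Pdf, which removes the formyl group of new proteins (-0.96 ± 0.23, adjusted p = 0.016).

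Mitochondrial aminoacyl-tRNA synthetases, which load tRNAs for these ribosomes, had a median of 0.17 over 16 genes at 3 weeks. Hars2 alone fell (-1.42 ± 0.28, limma, adjusted p = 0.0193), and at 7 weeks it was again lower than ND (-1.50 ± 0.28, adjusted p = 0.00703), at 1.77, 2.21 and 2.22, against 3.80, 3.56 and 3.35 in ND. At 7 weeks 3 of the 16 fell, among them Pars2 (-2.49, and -1.50 without 7 week replicate 1), and 1, Wars2, rose (1.60). The list median was -0.75. Over all genes 7.88% fell and 3.52% rose at 3 weeks, and 18.7% fell and 10.7% rose at 7 weeks. The share of synthetases that fell at 7 weeks was thus near that of all genes. Between 7 and 3 weeks 2 of the 16 genes fell and 1 rose, where 19.6% of all genes fell and 17.6% rose.

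Genes that copy and transcribe mitochondrial DNA had a median of 0.40 over 11 genes at 3 weeks. Polg, the catalytic subunit of the DNA polymerase, rose (2.07, 1.48 and 2.10 at 3 weeks, against 0.38, -0.55 and 0.17 in ND; 1.88 ± 0.35, limma, adjusted p = 0.0155). Ssbp1, which binds single-stranded mitochondrial DNA, fell at 3 weeks (-0.95, adjusted p = 0.0344) and rose at 7 weeks relative to ND (0.70, adjusted p = 0.0494), but unscaled signals gave -0.10 at 7 weeks. Polrmt, the RNA polymerase, rose at 7 weeks (1.13) and Polg2, the accessory subunit of the DNA polymerase, fell (-1.16), with a list median of -0.53. Relative to ND, 1 of the 11 genes fell and 1 rose at 3 weeks, and 1 fell and 2 rose at 7 weeks. Over all genes 7.88% fell and 3.52% rose at 3 weeks, and 18.7% fell and 10.7% rose at 7 weeks. Between 7 and 3 weeks 6 of the 11 genes fell and 1 rose, where 19.6% of all genes fell and 17.6% rose. The list median was -1.16. Tfam, which packages and transcribes mitochondrial DNA, was at -2.15, 1.84 and 1.73 at 7 weeks, against 3.52, 3.22 and 3.56 at 3 weeks (-2.96 ± 0.91, limma, adjusted p = 0.0317). Without 7 week replicate 1 its change was -1.65 (limma, adjusted p = 0.00402).

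With ND replicate 3 alone, the medians at 3 and 7 weeks were -0.70 and 0.27 for subunits without the prefix, 0.55 and 0.12 for assembly factors, -0.35 and -0.83 for translation factors, 0.42 and -0.64 for aminoacyl-tRNA synthetases, and 0.53 and -0.48 for genes that copy and transcribe mitochondrial DNA. The 7 week medians of the subunits without the prefix and of the assembly factors, at -0.09 and -0.09 with all 3 ND arrays, thus changed sign.

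**Figure D5:**
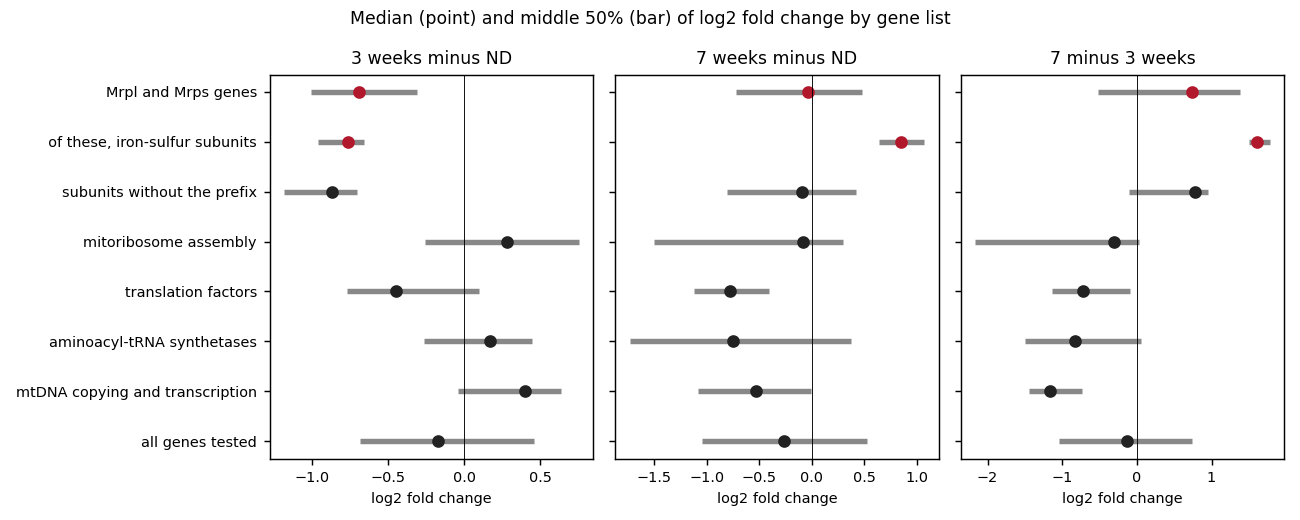
Median (point) and middle 50% (bar) of the log2 fold change of Mrpl and Mrps genes, of the 5 iron-sulfur members among them, of 5 other lists of mitochondrial translation and DNA genes, and of all 14506 genes, in 3 comparisons with an axis each. Mrpl and Mrps genes lie at -0.69, -0.04 and 0.73, and genes that copy and transcribe mitochondrial DNA at 0.40, -0.53 and -1.16.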

How the data were processed

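Gene expression was measured on 9 one-colour Agilent arrays, 3 per diet group, with RNA amplified and coupled to Cy3, per the labels' protocols. The deposited scanner files hold each spot's intensity from Agilent Feature Extraction 10.7.3.1, background-subtracted and detrended within each array, per the file headers. A deposited table of the series gives log2 values for these arrays, centred on each probe's median. Differences from ND replicate 1 in it matched the scanner values with r between 0.998 and 1 and slopes of 0.997 to 0.999, so scale and direction were settled, and the scaling between arrays before centring is not given in the sources used here. Its array medians were 0, except -0.0191 for 7 week replicate 2.

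Control spots and spots marked as outliers (0.336% to 0.651% per array) were left out, and no spot was saturated. From each log2 processed signal, the 75th percentile of its array was subtracted, and spots of a probe were averaged. Probes were named by RefSeq accession through a gene table of GRCm38.p6, which named 26413 of 55681 probes. Probes entered the test if every array of 1 or more groups had them well above background, and the brightest probe stood for a gene. The fit used limma 3.58.1 in R 4.3.3 (lmFit, eBayes, two-sided) and was tested on simulated data. An exact permutation test of 3 against 3 arrays cannot go below p = 0.1, so none was used.

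The number of arrays limits the precision. The members and lists were chosen with earlier results of these data known. Named are, per comparison, all members past the threshold up to 12, otherwise the 8 lower and 4 higher with the largest change, the 3 brightest and 3 dimmest, members with a further probe past the threshold opposite to the chosen one (Mrps14), the iron-sulfur members, subunits without the prefix, and up to 4 genes of each other list. Alternatives were other background corrections, scalings, filters, probes, fits and samples, described at the end.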

Additional observations from a re-analysis of the deposited data

Results flagged for a closer look

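The difference between 7 and 3 weeks of low iron diet is a test of whether the effects at both times, each relative to ND, differ. Of the members named by the rule, 21 passed it (limma, adjusted over all genes). Part of them were named because they passed this same comparison, so their number is no separate support. Over all genes 17.6% were higher and 19.6% lower. The higher ones were Mrpl54 (2.93), Mrpl52 (2.9), Mrps21 (2.7), Mrpl33 (2.41), Mrpl30 (2.35), Mrpl20 (1.99), Mrpl57 (1.99), Mrps16 (1.84), Mrpl51 (1.8), Mrps18a (1.78), Mrpl2 (1.64), Mrps18c (1.61), Mrps12 (1.58), Mrps6 (1.51) and Mrpl43 (1.12). Mrps14 passed with its brighter probe (1.14), but the mean of its probes gave -0.054, so no direction is stated for it. The lower ones were Mrps5 (-2.11), Mrps27 (-1.81), Mrpl37 (-1.68), Mrps9 (-1.46) and Mrpl35 (-1.08). Values are log2 fold changes, 7 weeks minus 3 weeks. Slide and scan differ with time on the diet, so they cannot be told apart from it.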

How the results depend on the processing

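Of 283 other settings of the counts and medians, 228 gave the same direction and call or a count within 1.5 times, 32 gave fewer calls, 9 more, 11 moved a median difference and 3 turned its sign. Of 3395 settings of single genes, 2910 gave the same result, 401 lost the call, 80 gained one and 4 turned the sign of a call. Members lower at 3 weeks numbered 11 as reported, 5 with quantile normalization, 5 with no scaling between arrays, 7 in the deposited series table, 7 with no filter on dim probes, 28 (and 3 higher) with only the 2 groups in the fit and 0 with ND replicate 3 alone (limma, 5 at an unadjusted p under 0.05). Normexp, applied after seeing the files to median in place of mean signals, gave 1 higher. At 7 weeks relative to ND, the 9 lower became 3 with quantile normalization, 25 unscaled, 2 in the fit of 2 groups and 0 with ND replicate 3 alone. The 5 higher became 0 unscaled, 3 in the fit of 2 groups and 0 with ND replicate 3 alone (limma, 1 lower and 6 higher at an unadjusted p under 0.05), and the median became -0.842 unscaled. Between 7 and 3 weeks, unscaled signals gave 20 lower, 8 higher and a median of -0.231, and the fit of 2 groups gave 3 lower. Over all genes the unscaled medians were -1.07 and -1.09 in these comparisons. Unscaled, 45.8% of all genes were lower and 3.13% higher at 7 weeks relative to ND, and 46.9% and 5.69% between 7 and 3 weeks. The fit of 2 groups had 12.6% of all genes lower and 6.88% higher at 7 weeks relative to ND. At 3 weeks 785 genes were lower with quantile normalization and 474 unscaled, against 1143 in the main fit. Bright minus dim was -0.295, 0.56 and 1.21 with quantile normalization in the 3 comparisons, 0.615 at 7 weeks with ND replicate 3 alone and 1.41 between 7 and 3 weeks with the stricter filter. Single calls turned to -0.054 for Mrps14 with the mean of its probes, and unscaled to -0.00908 for Aurkaip1 and -0.182 for Lrpprc between 7 and 3 weeks and to -0.101 for Ssbp1 at 7 weeks. The cause of these differences was not tested.

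Leaving out each array in turn gave 1 to 25 members lower and 0 to 2 higher at 3 weeks, 1 to 8 lower and 1 to 23 higher at 7 weeks relative to ND, and 1 to 6 lower and 16 to 44 higher between 7 and 3 weeks, the highest of 25, 23 and 44 without 7 week replicate 1. Mrpl minus Mrps ranged from -0.0777 to 0.454 at 7 weeks and from -0.164 to 0.473 between 7 and 3 weeks, negative without 7 week replicate 1, and bright minus dim from 0.503 to 0.898 and from 1.26 to 1.58. Replicate numbers did not pair the arrays: deviations from group means correlated between -0.172 and 0.286, over 0.1 in 4 of 9 pairs. With the replicate block, 8 members were lower at 3 weeks, 4 lower and 6 higher at 7 weeks, and 4 lower and 23 higher between them. Protein length and normexp on mean signals were not run.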
